A study of Mus musculus with 12 samples.

Results

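The genes described here encode the liver enzymes of the methionine cycle, of transsulfuration and of taurine synthesis. They are Mat1a, Mat2a, Gnmt, Ahcy, Bhmt, Bhmt2, Cbs, Cth, Cdo1 and Csad, 10 of the 56980 genes in the deposited matrix. Each was found by its symbol in 1 row, and all 10 were among the 13768 genes tested after a filter on low counts. The livers came from male B6.Cg-Lepob/J (ob/ob) mice of genotype Lep-/-, which make no leptin and grow obese, so mice of both diets share this defect. Mice were 8 weeks old at the start and 11 weeks old at harvest, ate freely, and received for 3 weeks a chow with 25% of its energy as protein (SPD, standard) or with 5% (LPD, low). Bulk RNA was sequenced from 6 livers per diet, 1 per mouse, as the labels state the group size. Lean mice were not analysed here.

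Methionine, an essential amino acid, is turned into S-adenosylmethionine (SAM), the methyl donor of most methylation reactions. Giving up the methyl group leaves S-adenosylhomocysteine, which is split to homocysteine, and homocysteine is either methylated back to methionine or passed to transsulfuration. Transsulfuration makes cysteine, which feeds glutathione, coenzyme A and, in the liver, taurine, an amino acid used to conjugate bile acids.

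Library totals lay between 19374676 and 23710930 counts. LPD replicates 2 and 5 stood apart on the first principal component, at 48.7 and 44.6 against 15.3 to 22.5 in the other LPD livers and -32.1 to -24.7 in SPD livers. For LPD replicate 1 the treatment and description labels name 25% protein, whereas its title and library code name LPD. Its log2 levels over all tested genes correlated at a mean r of 0.984 with the other LPD livers and 0.975 with SPD livers. It is treated here as LPD. No library code occurs in both diets (SP1 and SP2 against LP4 and LP5), so that whatever the codes stand for and the diet cannot be told apart.

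In LPD livers 6 of the 10 mRNAs rose, 1 fell and 3 did not pass the test, which called 39.9% of all tested genes (20.7% higher and 19.2% lower). Both SAM synthetase genes, Mat1a and Mat2a, rose about equally, as did Ahcy and, less firmly, Bhmt. The largest rises were those of the taurine synthesis genes Cdo1 and Csad. Gnmt, whose enzyme uses up SAM, fell. The transsulfuration genes Cbs and Cth and the Bhmt relative Bhmt2 did not pass. The median log2 fold change (LPD over SPD) was 0.50 over the 10 genes and -0.00059 over all tested genes. The 10 genes were chosen with earlier results of these data known, so their median is a description only. With LPD replicates 2 and 5 left out, 5 of the 10 rose and 1 fell, with a median of 0.40, and 32.5% of all genes tested in that setting were called. With LPD replicate 1 moved to SPD, 4 rose (Mat1a, Mat2a, Ahcy and Cdo1) and 0 fell by edgeR's test, which then called 32.2% of all genes tested.

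**Figure D1:**
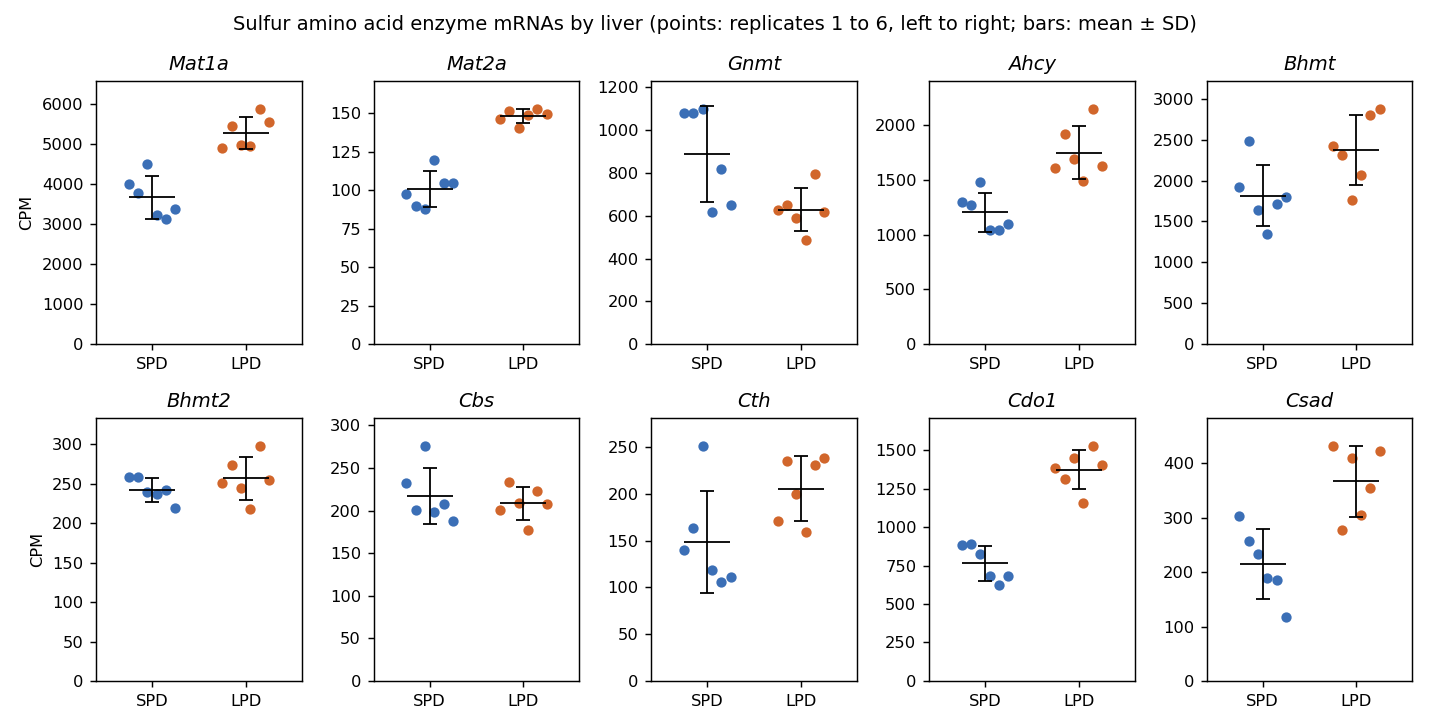
Normalised read counts (CPM, vertical axes, from 0) of the 10 mRNAs in each of the 6 SPD and 6 LPD livers, with mean and SD. All LPD livers lie above all SPD livers for Mat1a, Mat2a, Ahcy and Cdo1, whereas the diets overlap for the other 6 genes.

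Levels below are normalised read counts (CPM, scaled to a fixed library total and for composition). Differences between diets are log2 values of LPD relative to SPD ± SE, with n = 6 per diet. Adjusted p-values are from edgeR's quasi-likelihood test over all tested genes. Groups that do not overlap were seen for 19.9% of tested genes, 10.2% with LPD higher and 9.73% with LPD lower.

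Mat1a encodes the SAM synthetase of adult hepatocytes (ENSMUSG00000037798, chromosome 14, 41105035 to 41124412, plus strand, GRCm38). Its level in SPD livers was 3114 CPM at the lowest, 3578 at the median and 4498 at the highest, against 4897, 5216 and 5868 CPM in LPD livers. Every LPD liver thus lay above every SPD liver. Mat1a rose by 0.53 ± 0.093 (1.44-fold, adjusted p = 0.000399).

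Mat2a encodes the synthetase found in most other tissues and in growing or dedifferentiated hepatocytes (ENSMUSG00000053907, chromosome 6, 72432799 to 72439558, minus strand). SPD livers had 87.5, 100.8 and 120 CPM (lowest, median and highest) and LPD livers 140.5, 149.1 and 153 CPM. The diets did not overlap, and the LPD livers were close to each other, with a coefficient of variation of 2.98% against 11.7% in SPD livers. The rise was 0.56 ± 0.069 (1.47-fold, adjusted p = 1.80e-05). Mat2a shares 508 exon bases with Particl on the opposite strand. Particl holds 1.51% as many counts as Mat2a, and without a stated strand setting reads over the shared bases cannot be assigned to either gene. Mat2a counts were not whole numbers in 11 of 12 libraries, and how the counting program divided reads is not given in the sources used here.

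Per kilobase of gene length, Mat1a stood at 1143 ± 164 CPM and Mat2a at 35.9 ± 4.21 CPM in SPD livers (mean ± SD, n = 6). In LPD livers the levels per kilobase were 1647 ± 125 and 52.8 ± 1.57 CPM. Mat2a was thus 3.23 ± 0.768% of Mat1a in SPD livers and 3.22 ± 0.180% in LPD livers. The log2 ratio differed by 0.030 between diets, which did not pass an exact two-sided permutation test over all assignments of the 12 livers to the diets (p = 0.842, adjusted p = 0.842 over 2 ratios). Single SPD livers ranged from 2.23% to 4.24% and LPD livers from 2.97% to 3.43%, so that the SPD range encloses that of LPD.

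Gnmt encodes glycine N-methyltransferase, which methylates glycine to sarcosine and so disposes of excess SAM (ENSMUSG00000002769, chromosome 17, 46725664 to 46729168, minus strand). SPD livers held 619 CPM at the lowest, 947 at the median and 1097 at the highest, and LPD livers 486, 621 and 795 CPM. SPD replicates 1, 2 and 3 had 1081, 1078 and 1097 CPM, above 619, 817 and 648 CPM in replicates 4, 5 and 6. The diets overlapped: 3 of 6 LPD livers were below the lowest SPD liver, and all 6 were below the SPD mean. Gnmt fell by 0.51 on the log2 scale (-0.51 ± 0.15, adjusted p = 0.0154). It did not pass once LPD replicate 1 was moved to SPD (-0.44, adjusted p = 0.0648).

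Ahcy encodes the hydrolase that splits S-adenosylhomocysteine, an inhibitor of methyltransferases (ENSMUSG00000027597, chromosome 2, 155059310 to 155074497, minus strand). In SPD livers its level was 1037 CPM at the lowest, 1183 at the median and 1478 at the highest. LPD livers had 1487, 1659 and 2142 CPM. The groups did not overlap, although the lowest LPD liver, replicate 4, lay just above SPD replicate 3. Ahcy rose by 0.54 ± 0.10 (1.45-fold, adjusted p = 0.000891). Its deposited counts were not whole in 11 of 12 libraries. The related gene Ahcyl held 88 counts in all 12 libraries together.

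Bhmt encodes betaine-homocysteine methyltransferase, which takes a methyl group from betaine to regenerate methionine (ENSMUSG00000074768, chromosome 13, 93616675 to 93637961, minus strand). Levels were 1349, 1757 and 2482 CPM in SPD livers (lowest, median and highest) and 1757, 2369 and 2872 CPM in LPD livers. SPD replicate 2, the highest of its diet, lay above 4 of the 6 LPD livers. Bhmt rose by 0.38 ± 0.14 (1.31-fold, adjusted p = 0.0378). Its deposited counts were not whole numbers in any of the 12 libraries. The call was lost without any 1 of SPD replicates 1, 3, 4, 5 and 6 or LPD replicates 1, 2, 5 and 6, with adjusted p between 0.0502 and 0.0854. It was lost without both LPD replicates 2 and 5 (0.33, adjusted p = 0.113) and once LPD replicate 1 was moved to SPD (0.31, adjusted p = 0.141). The codes SP1 and LP4 alone gave 0.21 (adjusted p = 0.384).

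Bhmt2 encodes a related enzyme that takes the methyl group from S-methylmethionine (ENSMUSG00000042118, chromosome 13, 93655720 to 93674302, minus strand). Its levels were close to each other in both diets, 219, 241 and 259 CPM in SPD livers and 218, 253.0 and 298 CPM in LPD livers. The difference of 0.083 ± 0.071 did not pass (adjusted p = 0.373). Per kilobase, Bhmt2 was 13.8 ± 2.44% of Bhmt in SPD livers and 11.1 ± 1.72% in LPD livers. The log2 ratio was lower in LPD by 0.31 (difference -0.31), with an exact two-sided permutation p = 0.0476 and an adjusted p = 0.0952 over the 2 ratios, and so did not pass. Without SPD replicate 2 or LPD replicate 3 it passed, with differences of -0.39 and -0.38 (exact permutation, adjusted p = 0.0260 and 0.0390).

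The 3 genes Bhmt, Bhmt2 and Dmgdh follow each other on chromosome 13. Bhmt and Bhmt2 are 17758 bases apart on the same strand. Dmgdh, which encodes dimethylglycine dehydrogenase and so takes up the product of the betaine reaction, starts 130 bases from the start of Bhmt2 and runs the other way. Dmgdh did not pass (438 ± 30.2 to 397 ± 44.9 CPM, -0.14 ± 0.075, adjusted p = 0.149). Of these neighbours, Bhmt alone was called.

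Upstream sequences were available in a RefSeq table (GRCm38.p6) for 7 of the 10 genes. Those printed, 5′ to 3′ on the gene's strand, are of 2 cycle genes that rose without overlap (Mat2a, Ahcy), of the one that fell (Gnmt), and the stretch between the Bhmt2 and Dmgdh starts, which both genes share. They lie at chr6:72439559-72439806, chr2:155074498-155074747, chr17:46729169-46729415 and chr13:93674303-93674432, all on the minus strand, and end at or within a few bases of the start site. Capitals mark matches, on either strand, to 5 motifs.
Mat2a: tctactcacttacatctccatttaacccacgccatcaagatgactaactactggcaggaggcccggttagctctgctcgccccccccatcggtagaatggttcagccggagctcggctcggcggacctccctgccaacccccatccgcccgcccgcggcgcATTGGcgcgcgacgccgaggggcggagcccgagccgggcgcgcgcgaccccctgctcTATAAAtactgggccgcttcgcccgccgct
Ahcy: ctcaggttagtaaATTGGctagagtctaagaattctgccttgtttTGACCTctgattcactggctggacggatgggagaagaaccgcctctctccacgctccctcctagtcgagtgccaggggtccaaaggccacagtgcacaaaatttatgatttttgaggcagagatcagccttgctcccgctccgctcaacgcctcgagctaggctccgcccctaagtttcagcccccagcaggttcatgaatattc
Gnmt: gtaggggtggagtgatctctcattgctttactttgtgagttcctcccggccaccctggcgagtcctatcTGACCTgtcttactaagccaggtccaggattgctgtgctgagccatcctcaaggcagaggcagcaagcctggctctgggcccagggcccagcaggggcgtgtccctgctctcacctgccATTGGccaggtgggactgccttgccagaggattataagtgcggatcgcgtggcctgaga
Bhmt2: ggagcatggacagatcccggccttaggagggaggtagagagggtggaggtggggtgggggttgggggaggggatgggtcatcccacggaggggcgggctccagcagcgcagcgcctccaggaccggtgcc
Searched were TGATGNAA, a composite element bound by C/EBP and ATF factors, and AGGTCA, a half-site of nuclear receptors. The other motifs were the E-box, spelled CACGTG, the TATA box, spelled TATAAA, and the CCAAT box. No motif contains or overlaps another in these windows. Among the 32851 windows of 250 bases in the table, 3.45% hold TGATGNAA, 14.0% AGGTCA, 6.02% CACGTG, 12.4% TATAAA and 33.8% CCAAT. Mat2a holds TATAAA, with 26 bases between it and the start, and CCAAT on the reverse strand. Ahcy and Gnmt each hold AGGTCA and CCAAT, both on the reverse strand. The 130 bases between Bhmt2 and Dmgdh hold none of the 5, and TGATGNAA is not in any of the 4 stretches. These 130 bases are fewer than the 250 of the background windows, so the shares above do not apply to them. Of the stretches not printed, that of Bhmt (47 bases) holds AGGTCA and that of Cbs CACGTG and CCAAT. For Csad, the stretch at 102205087 to 102205228 holds CCAAT and the other none of the 5.

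Cbs encodes cystathionine beta-synthase, which commits homocysteine to transsulfuration (ENSMUSG00000024039, chromosome 17, 31608894 to 31637238, minus strand). SPD livers had 188, 204 and 276 CPM (lowest, median and highest) and LPD livers 177, 208 and 234 CPM. The ranges overlapped from 188 to 234 CPM, with SPD replicate 3 above all LPD livers and LPD replicate 4 below all SPD livers. The difference did not pass (-0.057 ± 0.091, adjusted p = 0.651). Its sign turned without SPD replicate 3 (0.025).

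Cth encodes cystathionine gamma-lyase, which releases cysteine and is a known target of ATF4, the transcription factor of the amino acid response (ENSMUSG00000028179, chromosome 3, 157894248 to 157925077, minus strand). Its level was 106, 129 and 252 CPM in SPD livers and 159, 216 and 238 CPM in LPD livers. SPD replicate 3 stood above all LPD livers. All 6 LPD livers were above the SPD mean, but the difference of 0.47 ± 0.18 did not pass (1.39-fold, adjusted p = 0.0534). Cth passed in 6 of 23 alternative settings and did not pass in 17. It passed without SPD replicate 3 (0.69, adjusted p = 0.000883), LPD replicate 1 (adjusted p = 0.0456) or LPD replicate 4 (adjusted p = 0.0345). It also passed with limma-voom (adjusted p = 0.0296), no filter on low counts (adjusted p = 0.0388) and the replicate number as a block (adjusted p = 0.0277). Settings in which it did not pass include DESeq2's Wald test (adjusted p = 0.0775) and edgeR without SPD replicate 5 (adjusted p = 0.114). Without LPD replicates 2 and 5 the difference was 0.37 (adjusted p = 0.182). In the codes SP1 and LP4 alone the difference was 0.18 (adjusted p = 0.546). For comparison, the level of another ATF4 target, Trib3, was 7.52 ± 0.760 CPM in SPD and 56.1 ± 21.5 CPM in LPD livers, a 7.47-fold rise (adjusted p = 2.14e-07). A further ATF4 target, Asns, rose less, from 3.18 ± 0.584 to 10.3 ± 4.19 CPM (3.24-fold, adjusted p = 8.19e-05).

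Cdo1 encodes cysteine dioxygenase, which oxidises cysteine to cysteine sulfinic acid, the entry to taurine synthesis (ENSMUSG00000033022, chromosome 18, 46713193 to 46728395, minus strand). SPD livers held 623 CPM at the lowest, 755 at the median and 888 at the highest, and LPD livers 1157, 1396 and 1529 CPM. The gap between the diets was wider than the range within SPD. Cdo1 rose by 0.85 ± 0.098 (1.80-fold, adjusted p = 1.05e-05). It was the 1 gene of the 10 called for a change beyond 1.5-fold by edgeR's glmTreat (adjusted p = 0.0475), a test that called 3.98% of all tested genes.

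Csad encodes the decarboxylase that turns cysteine sulfinic acid into hypotaurine (ENSMUSG00000023044, chromosome 15, 102176999 to 102204724, minus strand). Its levels were 118, 211 and 302 CPM in SPD livers and 277, 382 and 432 CPM in LPD livers. SPD replicate 1, the highest of its diet, lay above LPD replicate 2, and the other 5 LPD livers were above all SPD livers. Csad rose by 0.78 ± 0.18 (1.71-fold, adjusted p = 0.00305), which no longer passed once LPD replicate 1 was moved to SPD (0.53, adjusted p = 0.0975). Csad shares 278 exon bases with Zfp740 on the opposite strand, which holds 9.39% as many counts.

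**Figure D2:**
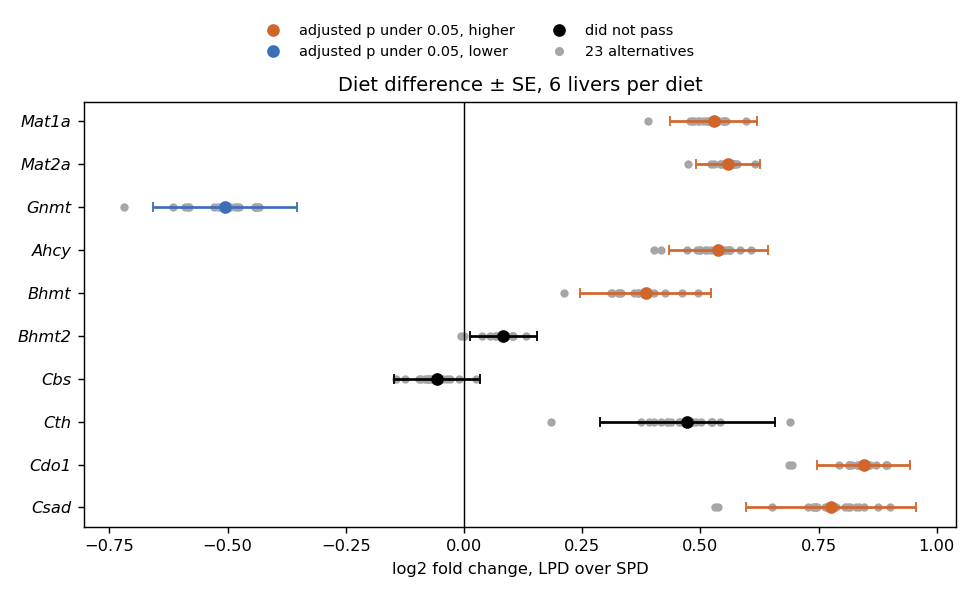
Log2 fold change of each mRNA (horizontal axis, LPD over SPD) with its SE (large points; orange higher, blue lower, black did not pass) and the same under 23 alternative settings (small grey points). Mat1a, Mat2a, Ahcy, Bhmt, Cth, Cdo1 and Csad lie above 0 and Gnmt below 0 in every setting run, and Bhmt2 and Cbs lie on both sides of 0.

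Per kilobase of gene length, the order in SPD livers was Mat1a, Gnmt, Bhmt, Cdo1, Ahcy, Bhmt2, Csad, Cbs, Cth and Mat2a, from 1143 down to 35.9 CPM. Neighbours in this order overlapped over the 6 livers except at 2 places. The lowest Ahcy level (408 CPM per kilobase) lay above the highest of Bhmt2 (105), and the lowest of Cth (58.2) above the highest of Mat2a (42.7). In LPD livers the order was Mat1a, Bhmt, Cdo1, Ahcy, Gnmt, Csad, Cth, Bhmt2, Cbs and Mat2a. Gnmt went from rank 2 to rank 5 (860.02 ± 217 to 606 ± 96.7 CPM per kilobase). Mat1a then lay apart from Bhmt, Gnmt from Csad, and Cbs from Mat2a, while the other neighbours overlapped. Among all tested genes, Mat1a ranked 51 in SPD and 40 in LPD livers by mean level per kilobase.

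**Figure D3:**
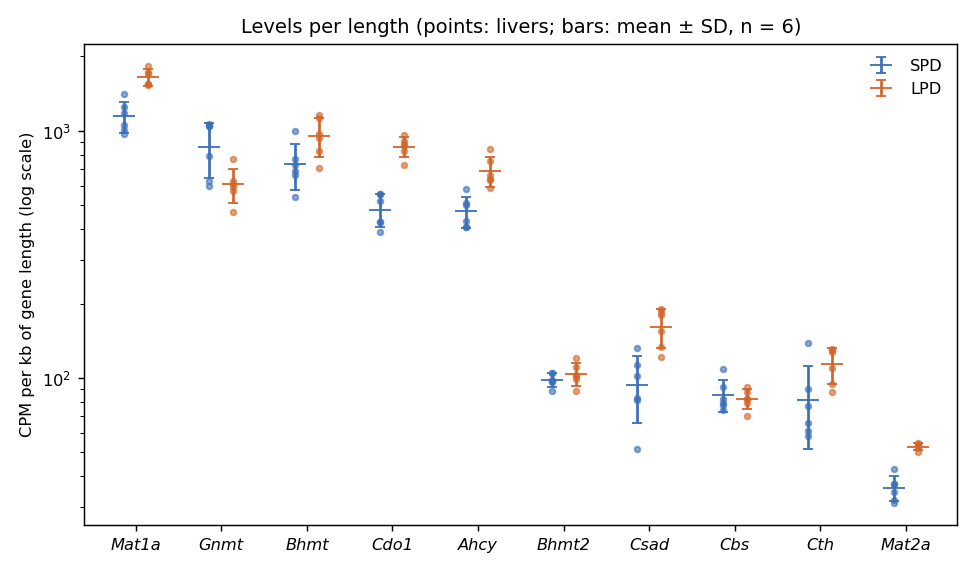
Levels per kilobase of gene length (vertical log axis, CPM per kb) of the 10 mRNAs in SPD and LPD livers, ordered by the SPD mean, with mean and SD over 6 livers. The 5 genes from Mat1a to Ahcy form the upper band in both diets, and Mat2a lies lowest at 35.9 and 52.8.

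Several of the 10 genes had their highest or lowest levels in the same livers of a diet. SPD replicates 1, 2 and 3 were the 3 highest SPD livers for 6 of the 10 genes (Mat1a, Gnmt, Ahcy, Cth, Cdo1 and Csad) and the 3 lowest for Mat2a. Only this split of the SPD livers was counted, and its share over all tested genes was not. Among LPD livers, replicate 5 was the highest for 6 genes and replicate 4 the lowest for 6. Csad differed there, being highest in replicate 1 and lowest in replicate 2. With each diet's mean subtracted, log2 levels of the 9 genes other than Mat2a correlated positively in all 36 pairs over the 12 livers (Pearson r 0.062 to 0.91). Over the same 12 livers, Mat2a had a negative r with each of the 9, from -0.69 with Gnmt to -0.10 with Bhmt2. These values pool both diets, and Mat2a varied more in SPD livers (coefficient of variation 11.7%) than in LPD livers (2.98%). In LPD livers, replicate 5 was the highest for Mat2a and also for Mat1a, Gnmt, Ahcy, Bhmt2 and Cdo1. Bhmt, Cbs, Cth and Csad were highest in other LPD livers. An r within each diet was not computed. These correlations are a description over 12 livers, in which all genes of a liver share its library and scaling. Between diets, by contrast, Mat2a rose together with Mat1a.

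**Figure D4:**
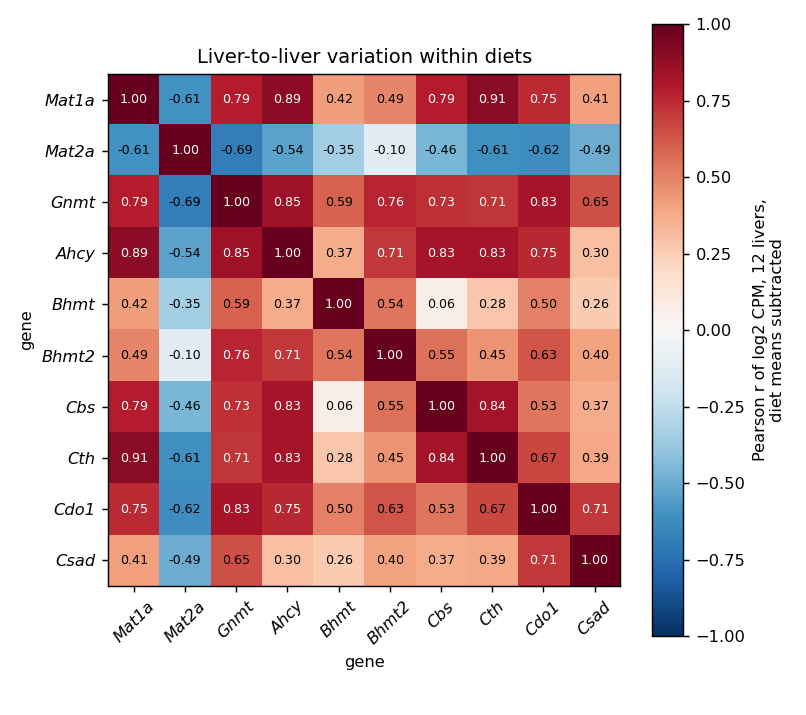
Pearson r between the 10 mRNAs (rows and columns) over 12 livers, on log2 CPM with diet means subtracted (color from -1 to 1). With the livers of both diets pooled, the Mat2a row is negative off the diagonal. The highest value between 2 genes is 0.91, for Mat1a with Cth.

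Other genes of these pathways were grouped in 7 lists, and 14 of 53 tested rose and 11 fell, where 20.7% of all tested genes rose and 19.2% fell. The counts of these lists lie near that background and are given as a description. The other 28 did not pass, and the median log2 difference was 0.019. In remethylation and betaine supply, 3 of 9 rose and 1 fell (median 0.064). Sardh, whose enzyme degrades the sarcosine that glycine N-methyltransferase makes, rose from 402 ± 57.3 to 566 ± 133 CPM (0.49 ± 0.13, adjusted p = 0.00881). The diets overlapped for Sardh: LPD replicates 2 and 5 had 722 and 741 CPM. The other LPD livers had 435 to 531 CPM and the highest SPD liver 508 CPM. Mmachc, which processes cobalamin for methionine synthase, rose too (0.21 ± 0.058, adjusted p = 0.00900). Aldh7a1, which oxidises betaine aldehyde to betaine among other aldehydes, fell from 390 ± 18.9 to 284 ± 38.7 CPM (-0.46 ± 0.079, adjusted p = 0.000344).

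Of 5 partners of the synthetases and the hydrolase, Mettl16 rose and the other 4 did not pass (median -0.0048). METTL16 methylates the Mat2a transcript and is known to govern its splicing and stability. Mettl16 ranged from 8.64 to 10.5 CPM in SPD livers and from 11.9 to 15.6 CPM in LPD livers, with no overlap (0.54 ± 0.080, adjusted p = 8.83e-05). Mat2b, the regulatory subunit, was at 42.6 ± 2.92 and 44.4 ± 2.25 CPM.

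Genes of enzymes that use SAM went both ways, with 2 of 10 methyltransferase mRNAs risen and 4 fallen (median -0.068). Pemt makes phosphatidylcholine by 3 methylations, and its mRNA rose from 163 ± 16.4 to 240.05 ± 20.8 CPM (0.56 ± 0.075, adjusted p = 3.68e-05). The histamine methyltransferase gene Hnmt fell from 50.7 ± 3.88 to 35.7 ± 2.91 CPM (-0.51 ± 0.066, adjusted p = 3.22e-05). Nnmt, for nicotinamide, fell from 80.6 ± 28.2 to 39.5 ± 15.002 CPM (-1.03 ± 0.24, adjusted p = 0.00369). In polyamine synthesis and methionine salvage 2 of 8 rose and 2 fell (median 0.057). Amd1, which decarboxylates SAM for polyamines, rose from 44.5 ± 3.48 to 68.3 ± 5.40 CPM (0.62 ± 0.065, adjusted p = 4.58e-06), with spermidine synthase Srm (0.45 ± 0.068), while spermine synthase Sms fell (-0.69 ± 0.13).

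Downstream of cysteine, 3 of 8 genes of cysteine and sulfide oxidation rose and 2 fell (median -0.063). Ethe1, a persulfide dioxygenase, fell from 25.5 ± 3.80 to 15.5 ± 0.796 CPM (-0.72 ± 0.089, adjusted p = 1.92e-05). The sulfurtransferases Tst (0.49 ± 0.077) and Mpst (0.29 ± 0.079) rose. Of 7 tested genes of taurine synthesis, transport and use, 3 rose and 1 fell (median 0.096), and Gadl1, a related decarboxylase gene, had no count in any liver. The 2 taurine carriers moved in opposite directions. Slc6a13 rose from 182 ± 11.9 to 299 ± 34.5 CPM (0.72 ± 0.075, adjusted p = 4.30e-06), and Slc6a6 fell from 146 ± 7.73 to 118 ± 8.60 CPM (-0.31 ± 0.058, adjusted p = 0.000668). Slc16a6, of the monocarboxylate transporter family, rose from 6.77 ± 1.26 to 12.4 ± 3.70 CPM. Of the 6 genes that lead from cysteine to glutathione and coenzyme A, Gclc, the catalytic subunit of the first step to glutathione, fell (381 ± 55.9 to 283 ± 39.1 CPM, -0.43 ± 0.11, adjusted p = 0.00486) and the other 5 did not pass.

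**Figure D5:**
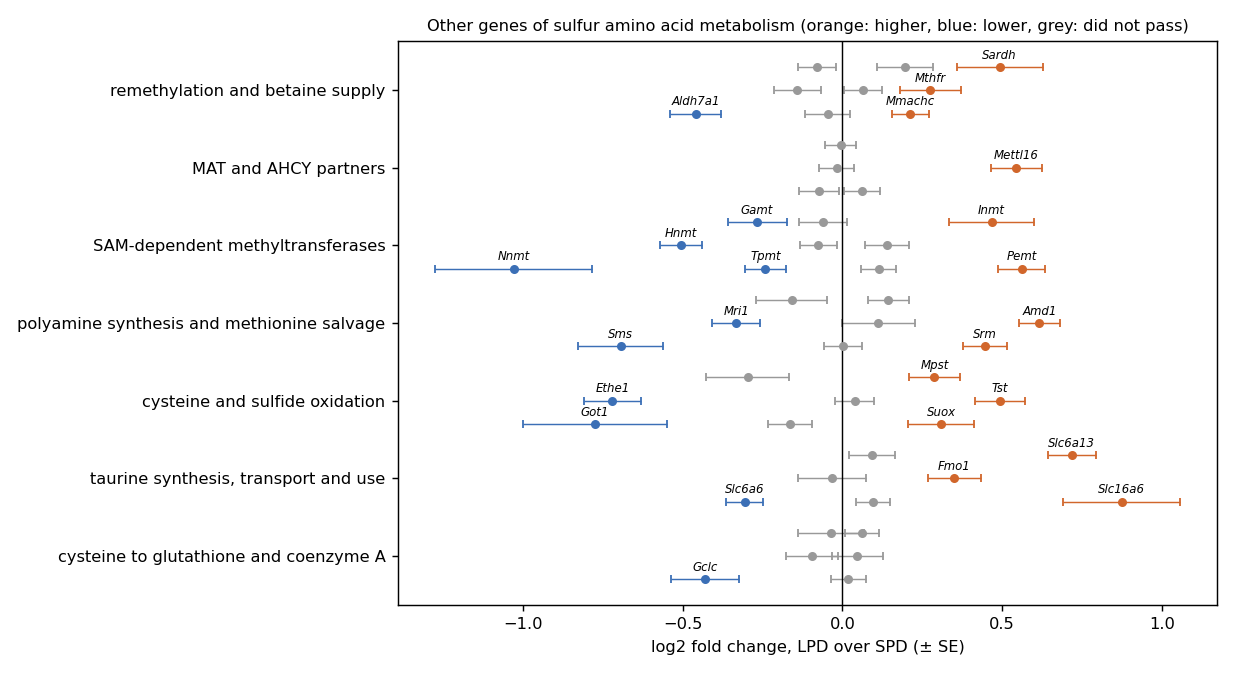
Log2 fold changes (horizontal axis, LPD over SPD, ± SE) of 53 other genes in 7 lists of sulfur amino acid metabolism, with symbols for those that passed. Each list but the synthetase partners and the glutathione and coenzyme A list holds genes on both sides that passed, from Nnmt at -1.03 to Slc16a6 at 0.87.

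Markers of cell types and of liver zones were compared beside these results. Among all tested genes 20.7% rose and 19.2% fell, and the counts of these short lists are given as a description. In bulk RNA, fewer cells of a type and less RNA per cell cannot be told apart. Of 7 hepatocyte markers 3 rose and 1 fell, with summed levels of 74958 to 82635 CPM in SPD and 62049.6 to 86669.6 CPM in LPD livers. Alb makes up most of that sum (65535 ± 3993 and 57232 ± 9437 CPM) and did not pass. Lipid-associated macrophage markers fell in 3 of 6 cases (Cd9, Spp1 and Lpl), and Trem2, Gpnmb and Itgax did not pass. The 6 summed to 333 to 616 against 91.9 to 256 CPM. By mean the largest part of that sum was Spp1, with 246 ± 112 CPM in SPD and 63.3 ± 25.6 CPM in LPD livers. Stellate cell markers fell in 4 of 8 cases (505 to 713 against 350.3 to 614 CPM). Sums of sinusoidal endothelial markers were 359 to 393 and 346 to 383 CPM, with 1 of 7 risen and 1 fallen. Of 7 Kupffer cell markers 1 rose and 2 fell (528 to 795 against 449 to 627 CPM). Of the cholangiocyte markers 1 of 5 tested fell, Spp1, which is also a macrophage marker, and the 3 lymphocyte markers tested did not pass (summed 1.35 to 2.51 CPM over both diets). Pericentral markers rose in 4 of 7 cases, with summed levels of 3018 to 5092 and 8885 to 13579 CPM. Most of that sum is Cyp2e1, which rose from 2194 ± 510.0 to 7915 ± 1673 CPM, with Glul, Lgr5 and Cyp1a2 also risen. Oat (553 ± 211 and 462 ± 142 CPM), Slc1a2 and Axin2 did not pass. Periportal markers fell in 3 of 7 cases (Cyp2f2, Gls2 and Cdh1), and the 7 summed to 3956 to 5045 against 3837 to 4641 CPM. The largest part of it is Pck1 (2239 ± 344 and 2290 ± 409 CPM), which did not pass. Cyp2f2 fell from 722 ± 70.6 to 449 ± 78.0 CPM, and Sds, Hal and Hsd17b13 did not pass. No marker was at 0 in all livers. The part of these marker differences in the results for the 10 genes was not tested.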

How the data were processed

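Livers of 12 mice were measured by bulk RNA sequencing. The authors deposited 1 matrix of expected counts (estimated counts per gene that need not be whole), not scaled between libraries, and a column of gene lengths. The submitters' processing notes name TopHat, DESeq2 and mm10 without versions or roles. Which program counted the reads, and whether by strand, is not given in the sources used here. Per the labels' protocols RNA was extracted with TRIzol and libraries made with a TruSeq kit.

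Counts were rounded and tested in R 4.3.3 with edgeR 4.0.16: filterByExpr (minimum count 10, minimum total 15), TMM scaling, the quasi-likelihood F test of diet, and Benjamini-Hochberg adjustment over all 13768 tested genes, called under 0.05. The procedure was also run on simulated counts in which few genes changed. That run does not test the scaling where as many genes differ as were called here. The SE is |log2 fold change| over the root of the F statistic. Correlations used log2 CPM with a prior count of 2. Coordinates are from GENCODE M21 on GRCm38, in which all 10 gene IDs were found. The genes and lists were chosen with earlier results of these data known. Named are all 10 genes, up to 3 called genes with the smallest adjusted p of each pathway list, Trib3 and Asns, and, by likeness, 1 gene for each of the 10. Dmgdh, Mat2b, Ahcyl, Spp1, Gadl1, Particl, Zfp740 and the other named markers of cell types and zones were chosen after their values or positions were seen. Alternatives were other scalings, filters and tools (DESeq2 1.42.0, limma 3.58.1), the replicate block and left-out libraries. The labels give mice as the replicates, and counts of the 10 genes in single libraries lay between 1850 (Mat2a) and 138339 (Mat1a), so counting error is largest for Mat2a.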

Additional observations from a re-analysis of the deposited data

How the results depend on the processing

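Of 23 alternatives, 21 left the number of the 10 genes called within 1.5 times of 7. The test for changes beyond 1.5-fold called 1 of the 10 and 548 of all genes (174 higher, 374 lower), and 4 of the 10 were called with LPD replicate 1 counted as SPD. The codes SP1 and LP4 alone, with 4 livers per diet, gave 3520 calls against 5496, and turned the sign of Bhmt2 (-0.0070). Leaving out 1 library at a time gave 6 to 8 of the 10 genes and 4956 to 5456 calls, -0.095 to 0.025 for Cbs, -0.070 to 0.12 for the Mat2a to Mat1a ratio and -0.39 to -0.23 for the Bhmt2 to Bhmt ratio (log2 differences). The first ratio turned sign without SPD replicate 1, 2 or 3 and with LPD replicate 1 counted as SPD (-0.0040). The cause of these changes was not tested. With the replicate number as a block, 8 of the 10 genes and 5230 in all were called, Cth (0.52, adjusted p = 0.0277) being added. Deviations of same-numbered libraries correlated at -0.054 to 0.097, and 3 of 12 libraries correlated best with their own number, so the numbers are read as names only. Mat1a, Mat2a, Ahcy and Cdo1 were called in the same direction under all alternatives except, for the first 3, the test beyond 1.5-fold.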

Other observations

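For each of the 10 genes, the gene among all tested ones with the most similar liver-to-liver variation was named (Pearson r of log2 CPM over 12 livers, diet means subtracted). Being the highest of many, these values are a description of these libraries. Ahcy was closest to the serpin gene Serpina1d (r = 0.98), which rose itself from 1208 ± 257 to 1998 ± 392 CPM. Mat1a was closest to Tcaim (0.96), Bhmt2 to Nipsnap1 (0.96), Cbs to the plasma prekallikrein gene Klkb1 (0.94), Csad to Bmp2 (0.94) and Cth to the lysine breakdown gene Aass (0.93). Gnmt was closest to Dpyd (0.95), which encodes the first enzyme of pyrimidine breakdown and fell as Gnmt did (-0.25 ± 0.080, adjusted p = 0.0220). Cdo1 was closest to the arginase gene Arg1 (0.92) and Bhmt to Agxt2 (0.83), both of which fell between diets (-0.35 ± 0.065 and -0.31 ± 0.060) while Cdo1 and Bhmt rose. Mat2a was closest to Chdh (0.89), whose enzyme makes the betaine precursor from choline. Chdh did not pass (-0.080 ± 0.060).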
